A study of Mus musculus with 160 samples.

Results

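Integrins are the adhesion receptors by which a cell holds on to its surroundings. The set described here is 10 integrin subunit genes, Itga2b, Itga4, Itga5, Itga6, Itgal, Itgav, Itgb1, Itgb2, Itgb3 and Itgb7, out of 26 integrin subunit genes and 23420 gene rows in the deposited table. They were chosen by name, as subunits known from endothelium or from blood, but with earlier results of these data known. The 10 genes were followed in 160 single mouse cells (strain C57BL/6) between hematopoietic endothelium and blood progenitors.

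The cells came from cultures of pluripotent stem cells in which doxycycline switches on a cassette coding for the transcription factors Runx1 and Hoxa9. According to the study's methods the cassette sits at the Rosa26 locus and the iHPCs came from such embryonic stem cells (iR9-ESC), whereas the labels do not say of each cell whether ESC or iPSC were used. All 4 groups share this cassette. The groups were 65 induced hematopoietic endothelial cells (iHECs) and 21, 18 and 56 induced hematopoietic progenitor cells (iHPCs) sorted on day 14, day 17 and day 21 of induction, which are days 3, 6 and 10 of maturation on OP9-DL1 stroma, feeder cells made to present a Notch ligand. The gate for iHECs was CD31+CD41lowCD45-c-kit+CD201high. On days 14 and 17 CD45+ cells free of a set of lineage markers were taken, and on day 21 the gate was Ter119-CD45+c-kit+CD127+. CD41 is the protein of Itga2b, so 1 member was itself part of the iHEC gate. According to the study's methods the iHECs were sorted before the stroma was used, and maturation took place in a different medium. Between iHECs and day 14, gate, day, stroma and medium thus changed together and cannot be told apart. Between day 17 and day 21 gate and day changed together and cannot be told apart.

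Each integrin is a pair of an alpha and a beta subunit, and the pair decides what is bound. Pairs built on the beta subunit Itgb1 hold endothelial cells to fibronectin and laminin, and Itgav and Itga2b pair with Itgb3 to bind vitronectin, fibrinogen and other proteins with the RGD motif. Leukocytes use their own set, of which Itgal with Itgb2 forms LFA-1 and binds ICAM proteins, and Itga4 with Itgb1 or Itgb7 forms VLA-4 and LPAM-1, which bind VCAM1 and MAdCAM1. Blood progenitors use the Itga4 pairs and LFA-1 to leave vessels and enter tissues such as the thymus. CD41 is known as an early surface sign of blood formation in the embryo and is later kept by megakaryocytes and platelets.

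The values are TPM, a transcript abundance that the authors scaled by transcript length and to 1 common total per cell, so levels of different genes can be set side by side. Means and differences below are on the log2(TPM + 1) scale, the SD is the spread between cells, and a transcript was called present in a cell where it was above 1 TPM. No animal or culture of origin is given in the labels, and each group was treated as 1 sample. Since cells are not replicates, groups were compared without any test, and no difference below is backed by replicates. Depth is unknown, and the number of genes above 1 TPM, the only sign of library complexity, had medians of 4926, 8200, 8101 and 6695.5 in iHECs and at days 14, 17 and 21. A value of 0 is described as listed at 0 and not as absence, since Hprt and Tbp, which all cells use, were listed at 0 in 6 and 28 of the 160 cells.

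Some profiles were nearly the same. In 9 pairs of cells Pearson's r over 9674 genes was above 0.92. They were 4 iHEC pairs with r of 0.963 to 0.991, where no other iHEC pair passed 0.699, 1 day-17 pair with r of 0.985, where no other passed 0.819, and 4 day-14 pairs with r of 0.924 to 0.956, where other pairs reached 0.901. No pair at day 21 passed 0.805. Without read counts it could not be tested whether these differ by more than sampling noise. All cells were kept, and values with each such pair merged into 1 profile (61, 17, 17 and 56 profiles) are given where they bear on a result.

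The markers of the sorted types followed the labels. The summed TPM of 6 endothelial genes had a median of 1195 in iHECs (range 39.7 to 3229) and of 48.9, 178 and 26.1 at days 14, 17 and 21, and Cdh5, their defining member, was above 1 TPM in 63 of 65 iHECs and listed at 0 in all 95 iHPCs. Transcripts of Ptprc (CD45) were found in 1 of 65 iHECs but in 19 of 21, 17 of 18 and 55 of 56 iHPCs of the successive days. Procr (CD201) and Kit were present in 59 and 48 of 65 iHECs, and Kit and Il7r (CD127) in 52 and 41 of the 56 day-21 cells.

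The iHECs carried mostly Itgb1, Itgb3 and the vascular alpha subunits. In iHPCs Itgb2, Itgb7 and Itgal were present in most cells in addition to Itgb1. Itga4 was present in 7 of 21 cells at day 14 and in 16 of 18 and 49 of 56 at days 17 and 21. Itgb1 was still found in all cells of days 14 and 17 and in 52 of 56 day-21 cells. At day 14 Itga5 and Itga6 were found in 17 and 16 of 21 cells, against 44 and 47 of 65 iHECs. From iHECs to day 14 the difference in mean log2(TPM + 1), taken relative to the median difference of all 9674 genes above 1 TPM in more than 30 cells (0.93), was more than 2 higher for 2 of the 10 members (Itgb2 and Itgb7) and more than 2 lower for 5 (Itgb3, Itgb1, Itga2b, Itgav and Itga6). Of all genes in this comparison 12.1% were more than 2 higher and 10.9% more than 2 lower. From day 14 to day 17 (median difference 0.28) 2 members were more than 2 higher, Itga4 and Itgb7, against 1.93% of all genes, and 0 were more than 2 lower, against 0.941%. From day 17 to day 21 (median difference -0.74) 0 members passed 2 in either direction, against 1.73% and 1.36% of all genes. Of the 10 members 9 passed the filter on low values, and Itga2b, above 1 TPM in 29 cells, did not but was kept in these counts. The number of genes per cell moved with the first step, and its part in the differences was not tested. Among cells with at least 5000 genes (31, 20, 18 and 48 by group) 3 members were more than 2 higher at day 14, Itgal in addition, and 6 were more than 2 lower, Itga5 in addition.

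**Figure D1:**
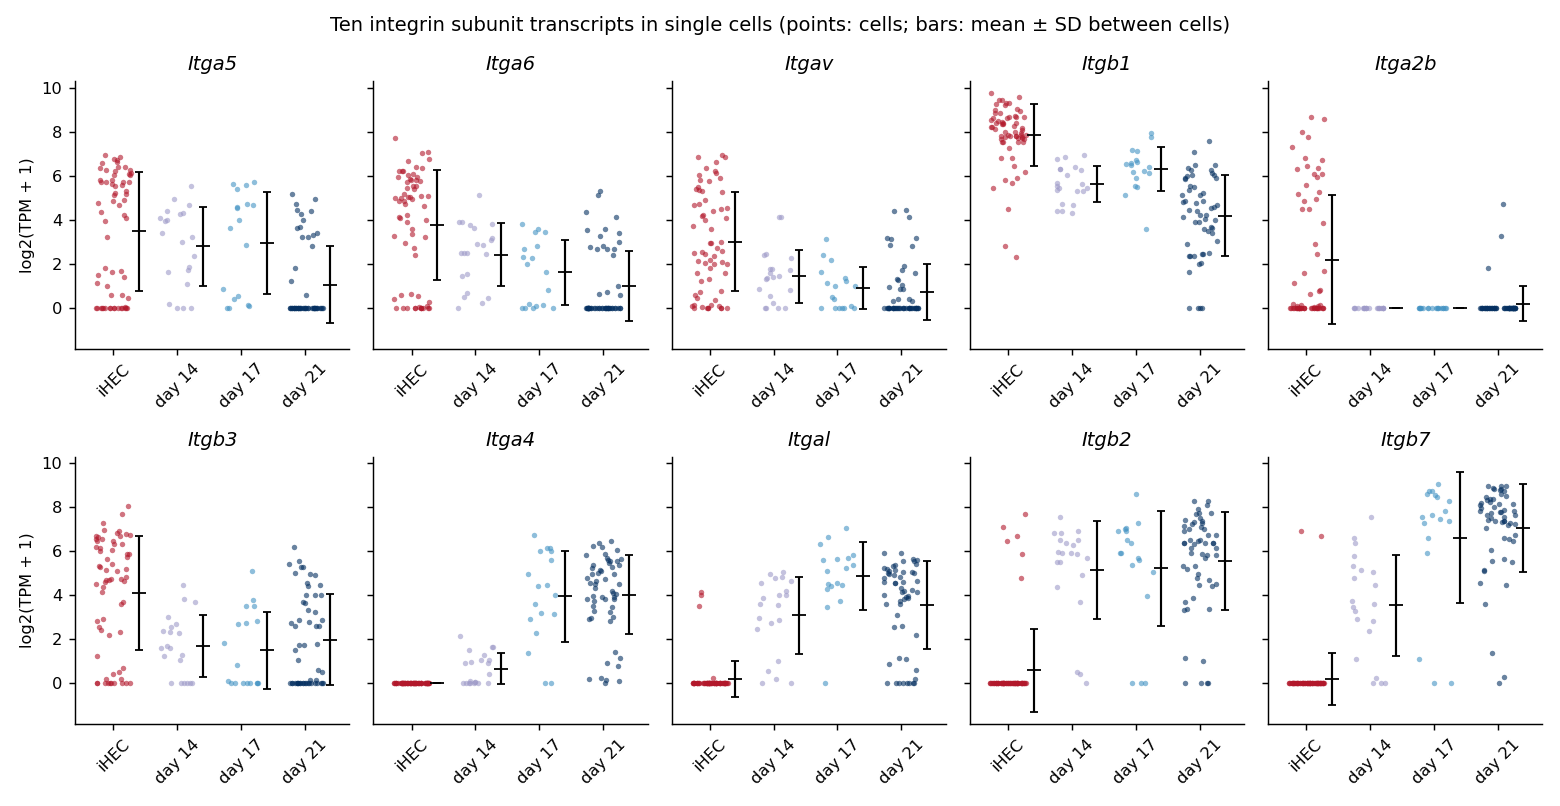
Each point is a cell, the vertical axis is log2(TPM + 1), the columns are iHECs (65 cells) and iHPCs of day 14 (21), day 17 (18) and day 21 (56), and the bars show the mean ± SD between cells. Itga4 lies at 0 in every iHEC and Itga2b in every day-14 and day-17 cell, whereas Itgb1 is above 0 in all groups except for 4 day-21 cells.

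Promoter sequences are shown for the alpha and beta partners that were higher at day 17, Itga4 and Itgb7, and for Itga2b, which was lower in iHPCs. RefSeq's table for GRCm38.p6 held a window of 300 bases, 250 before and 50 after the start, for 6 of the 10 members. Each is printed 5′ to 3′ on the gene's strand in lower case, and capitals mark GAGGAA, the core letters of a PU.1 site, TGTGGT, those of a Runx site, and AGATAA, those of a GATA site, on either strand. The Itga4 window is chr2:79255176-79255475 (plus strand), that of Itgb7 chr15:102231886-102232185 (minus strand) and that of Itga2b chr11:102469834-102470133 (minus strand). The start is RefSeq's, whereas GENCODE has Itga2b begin at 102470122. Most of the Itga2b window, with both marked stretches, thus lies inside the gene as GENCODE places it.
Itga4: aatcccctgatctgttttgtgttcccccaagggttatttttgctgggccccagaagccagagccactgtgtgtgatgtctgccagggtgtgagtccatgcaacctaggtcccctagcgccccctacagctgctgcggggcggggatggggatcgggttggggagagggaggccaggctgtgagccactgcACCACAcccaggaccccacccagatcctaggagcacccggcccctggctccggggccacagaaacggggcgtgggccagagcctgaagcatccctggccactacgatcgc
Itgb7: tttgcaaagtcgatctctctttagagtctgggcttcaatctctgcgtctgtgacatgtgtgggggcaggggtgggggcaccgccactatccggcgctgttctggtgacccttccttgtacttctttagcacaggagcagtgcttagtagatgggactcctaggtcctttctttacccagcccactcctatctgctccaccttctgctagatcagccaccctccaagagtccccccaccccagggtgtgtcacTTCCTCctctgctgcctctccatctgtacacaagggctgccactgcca
Itga2b: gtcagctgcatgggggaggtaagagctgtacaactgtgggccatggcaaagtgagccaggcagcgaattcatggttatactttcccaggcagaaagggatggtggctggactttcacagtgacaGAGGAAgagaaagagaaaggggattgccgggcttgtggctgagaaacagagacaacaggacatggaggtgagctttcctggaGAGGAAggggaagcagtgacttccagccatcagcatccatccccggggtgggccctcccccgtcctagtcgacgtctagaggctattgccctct

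Itga4 had 1 match to TGTGGT (as its reverse complement ACCACA), Itgb7 had 1 match to GAGGAA (as TTCCTC) and Itga2b had 2 matches to GAGGAA. These letters occur by themselves in many promoters. Of 32851 RefSeq windows of this length, 28.3% held GAGGAA, 16.8% TGTGGT and 11.2% AGATAA on either strand. A match is a description of letters and not of a bound site. The windows of Itga5, Itgav and Itgb1 held 1, 2 and 1 matches to GAGGAA and none to the other motifs. No window of Itga6, Itgal, Itgb2 or Itgb3 was used.

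Itgb1, the beta subunit that most alpha subunits of vessel wall cells share (GRCm38, chromosome 8, 128685654 to 128733200, plus strand), was the member present most widely. Its lowest, median and highest values were 3.87, 267 and 856 TPM in iHECs, 18.7, 44.4 and 120.5 at day 14, 11, 85.5 and 240.3 at day 17 and 0, 20.2 and 188 at day 21. All iHECs and all cells of days 14 and 17 had it, as did 52 of 56 day-21 cells (92.9%, exact Clopper-Pearson 95% interval 82.7 to 98.0). Intervals and limits here cover counting error only. The ranges of neighboring groups overlapped. On the log2(TPM + 1) scale the means were 7.83 ± 1.41, 5.61 ± 0.82, 6.29 ± 1.0 and 4.18 ± 1.84, and the first step was -2.22 (-3.14 relative to the median difference), larger than the SD of either group. The last step, of -2.12 (-1.38 relative to the median difference), was also larger than the SD.

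Itga5, which with Itgb1 forms the classical fibronectin receptor (chromosome 15, 103344286 to 103366763, minus strand), had medians of 24.8, 8.23, 13 and 0 TPM in the order of groups and highest values of 123, 44.8, 51.1 and 34.4 TPM, with a lowest of 0 in each group. Transcripts were detected in 44 of 65 iHECs, 17 of 21 and 11 of 18 iHPCs of days 14 and 17, and 16 of 56 of day 21 (28.6%, interval 17.3 to 42.2). Its level in iHECs, with a mean of 3.47 ± 2.70, was divided between cells, since 16 iHECs were listed at 0 and the 44 cells above 1 TPM had a median of 49.4. The iHPC means of 2.79 ± 1.79, 2.95 ± 2.31 and 1.05 ± 1.74 differed from the preceding group by less than the SD between cells. Itga5 was thus the vascular alpha subunit with the smallest step out of iHECs, -0.68, or -1.61 relative to the median difference.

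Itga6, a laminin receptor subunit (chromosome 2, 71745616 to 71858416, plus strand), had medians of 27.4, 4.58, 2.49 and 0 TPM and highest values of 205, 33.9, 12.9 and 39, again with a lowest of 0 in each group. Cells with Itga6 were 47 of 65 iHECs (72.3%, interval 59.8 to 82.7), 16 of 21, 10 of 18 and 15 of 56 iHPCs (26.8%, interval 15.8 to 40.3). Its means went from 3.77 ± 2.49 to 2.41 ± 1.44, 1.61 ± 1.47 and 0.97 ± 1.59. The groups overlapped, and the first step of -1.36 (-2.28 relative to the median difference) was smaller than the SD between iHECs.

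Itgav, the vitronectin receptor subunit (chromosome 2, 83724397 to 83806916, plus strand), had medians of 4.98, 1.66, 0.692 and 0 TPM and highest values of 119.9, 16.4, 7.72 and 20.5. Of iHECs 48 of 65 had it, of iHPCs 13 of 21, 8 of 18 and 14 of 56. Its means were 2.99 ± 2.25, 1.43 ± 1.2, 0.89 ± 0.96 and 0.73 ± 1.27, and the first step of -1.56 was -2.49 relative to the median difference. For these 3 alpha subunits the shares of cells in iHECs and at day 14 had overlapping intervals while the medians were lower at day 14, and at day 21 the shares lay between 25% and 28.6%.

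Itga2b (chromosome 11, 102453297 to 102470122, minus strand) was listed at 0 in all 21 day-14 and all 18 day-17 iHPCs (shares of up to 14.3% and 16.7% are allowed by such counts). In iHECs it reached 401 TPM with a median of 0.0659, and 26 of 65 cells (40%, interval 28 to 52.9) were above 1 TPM with a median of 53.5 among them. At day 21 it was above 1 TPM in 3 of 56 cells (5.36%, interval 1.12 to 14.9), with a highest value of 24.9 TPM. The iHEC mean was 2.18 ± 2.92, so the transcript of the gated protein was uneven within the gate. Of 8 megakaryocyte markers, the summed TPM had medians of 1.62 in iHECs (up to 419), 3.0 at day 14 and 0 at days 17 and 21. Pf4 was present in 16 of 65, 11 of 21, 1 of 18 and 0 of 56 cells, and only Pf4, at day 14, was present in most cells of a group. Of the 8 markers 6 were above 1 TPM in any iHEC and 4 in any day-14 cell. Ppbp and Gp6 were listed at 0 in all iHECs, and Gp1bb, Gp1ba and Gp6 in all day-14 cells. The part of these markers in the Itga2b values was not tested.

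The iHECs with Itga2b above 1 TPM had more complex libraries than the other 39, with medians of 5757 and 4705 genes. In these 26 and 39 cells the mean of Itgb3 was 4.69 ± 2.63 and 3.72 ± 2.52, that of Itgav 2.16 ± 1.84 and 3.55 ± 2.35, and that of Itgb1 7.60 ± 1.28 and 7.98 ± 1.49, each apart by less than the SD between cells.

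Itgb3, the beta partner of Itga2b and Itgav (chromosome 11, 104608000 to 104670476, plus strand), had medians of 25.9, 2.06, 0.434 and 2.08 TPM and highest values of 265, 20.8, 33.8 and 73.3, with 0 as the lowest in each group. Itgb3 was present in 50 of 65 iHECs (76.9%, interval 64.8 to 86.5), 15 of 21, 8 of 18 and 30 of 56 iHPCs (53.6%, interval 39.7 to 67.0). The means were 4.11 ± 2.59, 1.7 ± 1.39, 1.5 ± 1.75 and 1.98 ± 2.06, a first step of -2.40 or -3.33 relative to the median difference, within the SD between iHECs. The transcript was thus still present in part of the iHPCs where that of Itga2b was listed at 0.

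Of the subunits known from leukocytes, Itgb2, the beta chain of LFA-1 and of the other leukocyte integrins (chromosome 10, 77530252 to 77565708, plus strand), was the earliest to be high. Its median was 0 TPM in iHECs and 60.4, 59.3 and 79.7 TPM at days 14, 17 and 21, and the highest values were 203, 187, 382 and 313. Cells with Itgb2 were 6 of 65 iHECs (9.23%, interval 3.46 to 19), while by day there were 18 of 21 (85.7%, interval 63.7 to 97.0), 15 of 18 and 52 of 56 iHPCs. The means were 0.59 ± 1.90, 5.15 ± 2.21, 5.23 ± 2.61 and 5.56 ± 2.22, and the first step of 4.56 (3.63 relative to the median difference) was larger than the SD of either group. Later steps were 0.08 and 0.33, well within it.

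Itgal, its alpha partner (chromosome 7, 127296260 to 127335138, plus strand), had medians of 0, 11.3, 35.3 and 17.5 TPM and highest values of 16.6, 32.5, 130.3 and 60.5. Itgal was detected in 3 of 65 iHECs (4.62%, interval 0.962 to 12.9), 17 of 21, 17 of 18 and 45 of 56 iHPCs. The 3 iHECs held 1 of the near-identical pairs, and merging left 2 of 61. The means were 0.18 ± 0.82, 3.10 ± 1.74, 4.89 ± 1.56 and 3.57 ± 1.98. The steps of 2.91 from iHECs to day 14 and 1.79 from day 14 to day 17 were larger than the SD between cells, and were 1.98 and 1.52 relative to the median differences, so Itgal stood just outside the members counted as more than 2 higher.

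Itga4 (chromosome 2, 79255426 to 79333123, plus strand, on the strand opposite to Cerkl, which it overlaps) was the last of the leukocyte subunits to appear. All 65 iHECs were listed at 0, which allows a share of up to 4.62%. At day 14 the median was 0.330 TPM and the highest value 3.47, and 7 of 21 cells (33.3%, interval 14.6 to 57) were above 1 TPM. At day 17 the median was 17.7 and the highest value 107, with 16 of 18 cells above 1 TPM (88.9%, interval 65.3 to 98.6), and at day 21 these were 20.5, 87.0 and 49 of 56 cells (87.5%, interval 75.9 to 94.8). Days 14 and 17 overlapped at the low end, where 2 day-17 cells were listed at 0. The mean went from 0.66 ± 0.71 to 3.95 ± 2.07 and 4.02 ± 1.80, and the step into day 17 was 3.29 (3.02 relative to the median difference), above the SD of either group. Whether reads were counted by strand is not given in the sources used here, so reads of Cerkl may be included.

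Itgb7 (chromosome 15, 102215995 to 102231944, minus strand) reached the highest level of the 10 members in iHPCs of days 17 and 21. Its medians were 0, 11, 194 and 198 TPM in the order of groups, with highest values of 120.3, 187, 531 and 498. Itgb7 was detected in 2 of 65 iHECs (3.08%, interval 0.375 to 10.7), 17 of 21, 16 of 18 and 54 of 56 iHPCs (96.4%, interval 87.7 to 99.6). The means were 0.21 ± 1.19, 3.56 ± 2.30, 6.62 ± 3.0 and 7.05 ± 2.0. Both the first step of 3.35 (2.42 relative to the median difference) and the next of 3.07 (2.79) were larger than the SD of either group, and the last, 0.43, was not.

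In the order of the 10 means, Itgb1 led in iHECs, and its gap of 3.72 to the next, Itgb3, was the only gap between neighbors in any of the 4 groups that was larger than the SD between cells. Behind Itgb1 came Itgb3, Itga6, Itga5, Itgav and Itga2b, and the 4 leukocyte subunits had the lowest means. At day 14 Itgb1 (5.61) and Itgb2 (5.15) led. At day 17 the order began with Itgb7 (6.62), Itgb1 (6.29) and Itgb2 (5.23), and at day 21 with Itgb7 (7.05), Itgb2 (5.56) and Itgb1 (4.18). Neighbors in these iHPC orders did not differ beyond their spread.

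The beta and alpha subunits were also ranked within each cell, where at day 14 Itgb2 led more often than Itgb1. Among 8 beta subunits Itgb1 had the highest TPM in 61 of 65 iHECs (93.8%, interval 85.0 to 98.3), Itgb2 in 12 of 21 day-14 iHPCs (57.1%, interval 34 to 78.2) and Itgb1 in 4 of them, and Itgb7 in 13 of 18 at day 17 (72.2%, interval 46.5 to 90.3) and in 43 of 56 at day 21 (76.8%, interval 63.6 to 87.0). Itgb7 was above Itgb1 in 1 of 65, 4 of 21, 13 of 18 and 48 of 56 cells, and the median of Itgb7 minus Itgb1 within a cell was -8.06, -1.88, 1.47 and 3.10 on the log2(TPM + 1) scale. Among 18 alpha subunits no single one led in iHECs, where Itga5 was highest in 16 of 65 cells, Itga2b and Itgav in 11 each and Itga6 in 10. Itga5 led in 7 of 21 cells at day 14, Itgal in 10 of 18 at day 17 and Itga4 in 25 of 56 at day 21 (44.6%, interval 31.3 to 58.5). Itga4 was above Itga5 in 0 of 65, 2 of 21, 11 of 18 and 49 of 56 cells. Which subunit is the higher within a cell does not depend on how TPM was scaled between cells. The size of a log2(TPM + 1) difference does, through the added 1. In iHECs, where Itgb7 was listed at 0 in 63 of 65 cells, this difference mostly gives the level of Itgb1.

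**Figure D2:**
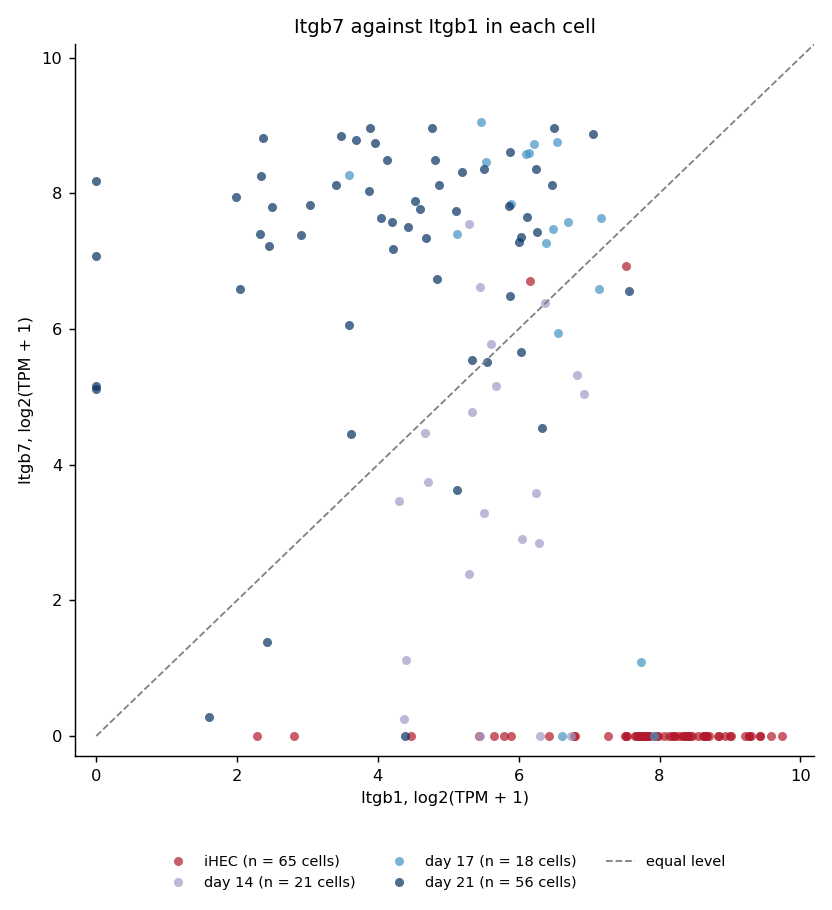
Each point is a cell, with Itgb1 on the horizontal and Itgb7 on the vertical axis, both in log2(TPM + 1), and the dashed line marks equal levels. Of 65 iHECs 63 lie at 0 for Itgb7, and 13 of 18 day-17 and 48 of 56 day-21 cells lie above the line.

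An integrin needs both chains, so partners were counted in the same cell. These are transcripts and not assembled proteins. Itga5 and Itgb1 were found together in 44 of 65 iHECs and, by day, in 17 of 21, 11 of 18 and 15 of 56 iHPCs. For Itga6 with Itgb1 the counts were 47, 16, 10 and 15, and for Itgav with Itgb1 48, 13, 8 and 14. Since Itgb1 was present in all but 4 cells, the alpha subunit set these counts, and where both were present Itgb1 was mostly the higher, with a median alpha minus beta of -2.67 for Itga5, -2.69 for Itga6 and -3.82 for Itgav in iHECs on the log2(TPM + 1) scale.

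The Itgb3 pairs were uneven. Itga2b and Itgb3 were both above 1 TPM in 21 of 65 iHECs (32.3%, interval 21.2 to 45.1), in 0 of 21 and 0 of 18 cells at days 14 and 17, which allows up to 14.3% and 16.7%, and in 2 of 56 at day 21. In iHECs with both, their levels were close, with a median Itga2b minus Itgb3 of -0.06 and Itga2b the higher in 9 of 21. Itgb3 without Itga2b was found in 29 iHECs and Itga2b without Itgb3 in 5. Itgav and Itgb3 were both present in 37 of 65 iHECs (56.9%, interval 44 to 69.2), 10 of 21, 1 of 18 (5.56%, interval 0.141 to 27.3) and 11 of 56 iHPCs, and at day 17 7 cells had Itgav alone and 7 had Itgb3 alone.

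The leukocyte partners were mostly present in the same iHPCs. Itgal and Itgb2 were found together in no iHEC (0 of 65, a share of at most 4.62%), although 3 iHECs had Itgal and 6 had Itgb2. At days 14, 17 and 21 they were together in 17 of 21 (81.0%, interval 58.1 to 94.6), 15 of 18 and 44 of 56 cells. Itga4 with Itgb7 were both present in 0, 5 of 21 (23.8%, interval 8.22 to 47.2), 15 of 18 (83.3%, interval 58.6 to 96.4) and 47 of 56 cells (83.9%, interval 71.7 to 92.4), and Itga4 with Itgb1 in 0, 7, 16 and 45 cells. At day 14, 12 cells had Itgb7 without Itga4. In day-21 cells with Itga4 and Itgb1 the median difference was 0.01 and Itga4 was the higher in 23 of 45, whereas with Itgb7 the median Itga4 minus Itgb7 was -2.91 and Itga4 was the higher in 5 of 47.

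**Figure D3:**
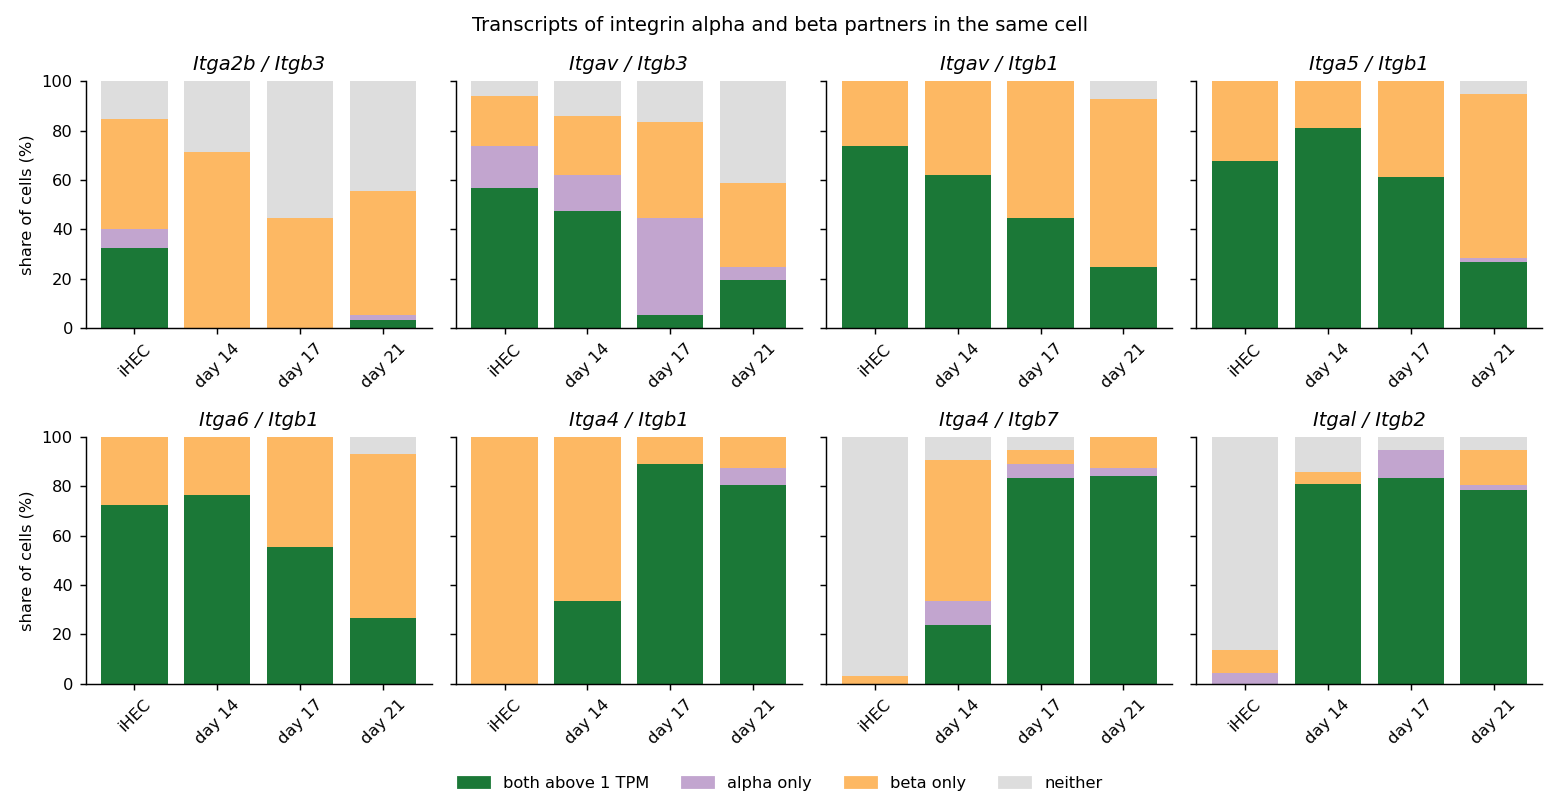
Stacked bars give the share of cells (%) in each group with both partners above 1 TPM, the alpha alone, the beta alone or neither, for 8 known pairs. The Itga4 and Itgb7 bar goes from 0 of 65 iHECs with both to 47 of 56 day-21 iHPCs, and the Itga5 and Itgb1 bar from 44 of 65 to 15 of 56.

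Counting subunits per cell, a median of 5, 7, 6.5 and 6 of the 10 members was above 1 TPM in the order of groups. No iHEC had all of Itgal, Itgb2 and Itgb7, and 56 of 65 had none of them. All 3 were present in 15 of 21, 13 of 18 and 43 of 56 iHPCs. At least 1 of these 3 together with at least 1 of Itga5, Itga6, Itgav and Itgb3 was found in 9 iHECs, and by day in 19 of 21, 18 of 18 and 41 of 56 cells. At day 21, 14 of 56 cells had at least 1 of the 3 leukocyte subunits and none of these 4 vascular ones. This was found in 0 cells of the earlier groups, which allows up to 4.62%, 14.3% and 16.7%. Itgb1, present in 52 of 56 day-21 cells, was not among the 4. Libraries of day 21 had fewer genes than those of days 14 and 17 (medians of 6695.5, 8200 and 8101), whose part in this was not tested.

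The 9 iHECs with a leukocyte subunit were looked at singly, after their values had been seen. All 6 with Itgb2 also had Itgb1 and Itgb3 above 1 TPM, and all 6 had Sfpi1, which codes for the myeloid and lymphoid factor PU.1, at a mean of 7.62 ± 1.55 against 2.03 ± 3.20 in the other 59 iHECs, of which 17 were above 1 TPM. Cdh5 was above 1 TPM in 5 of the 6, against 58 of 59, and its medians over all 6 and all 59 cells were 5.79 and 61.5 TPM. Ptprc was above 1 TPM in 1 of the 6 and 0 of the 59. The median number of genes was 4875 and 4926.

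Day-21 cells were divided at 31 TPM of Gata2, a factor of blood stem cells and mast cells, into 22 cells at or above the threshold and 34 below it. The threshold came from earlier knowledge of these data and is a range of 1 gene's values, not a cell type. The lowest value above it was 66.0 TPM and the highest below it 9.18 TPM, and 5 cells lay within 2 log2 units of it. The complexity was similar, with medians of 6665.5 and 6769.5 genes. Summed TPM of 7 mast cell markers had a median of 36372.8 (range 1076 to 82599.5) above the threshold and 987 (81.3 to 4647) below, with Tpsb2 listed at 0 in both and Fcer1a in the lower class. For 8 T lymphoid markers the medians were 41.5 and 1385. In the lower class Lck (771 TPM) and Cd7 (207 TPM) had the highest medians of the 8, and 5 of the 8 were above 1 TPM in most cells. Cd3e, Cd3d and Bcl11b were above 1 TPM in 8, 7 and 1 of its 34 cells. Of the members, 0 differed by more than 2 in either direction between the classes, where the median difference over all genes was 0 and 3.5% of all genes were more than 2 higher and 2.37% more than 2 lower.

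Itgb3 came closest. It was above 1 TPM in 18 of 22 cells above the threshold (81.8%, interval 59.7 to 94.8), with a median of 10.2 and a highest value of 73.3 TPM, and in 12 of 34 below it (35.3%, interval 19.7 to 53.5), with a median of 0.00614 and a highest of 46.1. The means were 3.16 ± 2.03 and 1.21 ± 1.71, a difference of 1.94 that was within the SD between cells. The classes overlapped from 0 to 46.1 TPM. With the threshold at 1 TPM of Gata2 instead the difference was 1.57, and at 100 TPM 1.26. With a pseudocount of 0.1 it was 3.24, with one of 10 it was 0.79, and between medians it was 3.46, so its size depended on how cells near 0 were weighted.

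Itgb7 was above 1 TPM in all 22 cells above the threshold, with a lowest value of 33.8, a median of 303 and a highest of 498 TPM, and in 32 of 34 below it, with 0, 162 and 448. The means were 7.97 ± 1.02 and 6.46 ± 2.25, a difference of 1.51. Within cells Itgb7 exceeded Itgb1 in 22 of 22 (100%, interval 84.6 to 100) and 26 of 34 cells (76.5%, interval 58.8 to 89.3). Itga5 was above 1 TPM in 11 of 22 and 5 of 34 cells, with means of 1.85 ± 2.08 and 0.52 ± 1.26. In the opposite direction, Itga6 was above 1 TPM in 3 of 22 and 12 of 34 cells, with means of 0.48 ± 1.09 and 1.29 ± 1.78.

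For the remaining members high minus low was 0.88 for Itgb2, 0.62 for Itga4, 0.55 for Itgav, 0.37 for Itgal, 0.06 for Itga2b and -0.37 for Itgb1. No difference of the 10 was larger than the larger SD. Itga4 and Itgb7 were both present in 20 of 22 (90.9%, interval 70.8 to 98.9) and 27 of 34 cells (79.4%, interval 62.1 to 91.3), Itgal and Itgb2 in 19 of 22 and 25 of 34, and Itgav and Itgb3 in 8 of 22 and 3 of 34. Itgb1 was the highest beta subunit in 7 of 34 cells below the threshold and in 0 of 22 above it.

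**Figure D4:**
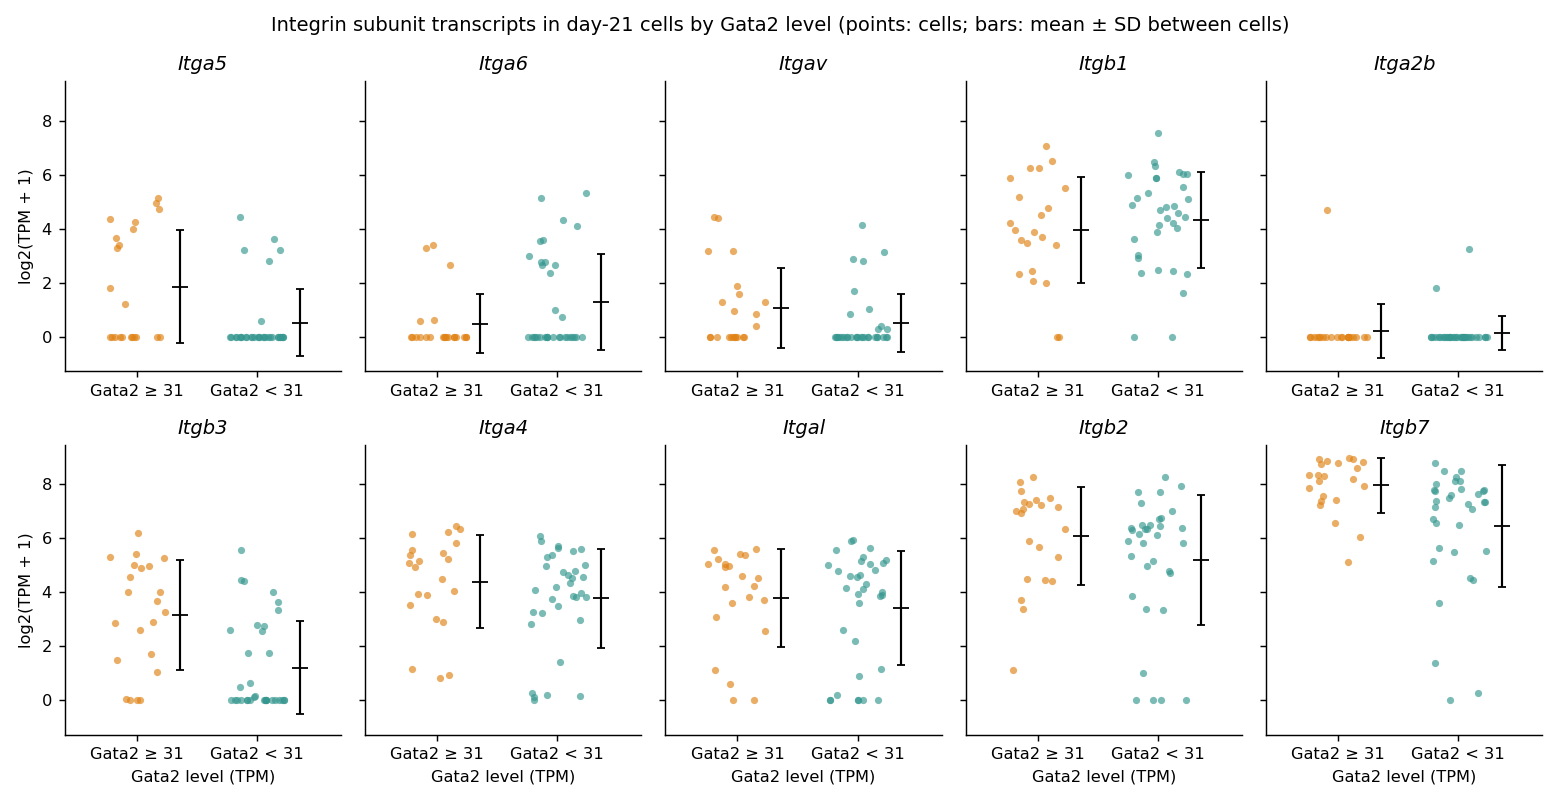
Day-21 cells are shown in log2(TPM + 1) for each member, 22 with Gata2 at or above 31 TPM and 34 below, with the mean ± SD between cells. The classes overlap in all 10 panels, and 18 of 22 against 12 of 34 cells are above 1 TPM for Itgb3.

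Among the other 16 integrin subunits, 5 passed the filter on low values. Of all genes 12.1% were more than 2 higher and 10.9% more than 2 lower in the first step. From iHECs to day 14, 3 of the 16 were more than 2 lower, namely Itga1, a collagen receptor subunit (mean 2.70 to 0.04), Itga3, a laminin receptor subunit (2.69 to 0.12), and Itga9 (1.59 to 0.24), and 0 were more than 2 higher. No other step between groups had a call. Itgb5 stayed short of the rule but was higher at day 14 (mean 1.05 to 3.81, a step of 2.76 or 1.84 relative to the median difference). It was above 1 TPM in 13 of 65, 18 of 21, 9 of 18 and 14 of 56 cells. Itgam, the alpha chain of Mac-1 in myeloid cells, was above 1 TPM in 1 of 65, 12 of 21, 5 of 18 and 16 of 56 cells. At day 14 the summed TPM of 7 neutrophil or monocyte markers had a median of 643, against 0, 55.3 and 0 in iHECs and at days 17 and 21, and its part in the day-14 levels of Itgb2 and Itgam was not tested. Itga9 was present in 22 of 22 day-21 cells above the Gata2 threshold, with a mean of 4.95 ± 1.12, and in 8 of 34 below it, with 0.72 ± 1.31. The difference was 4.23, and 3.5% of all genes were more than 2 higher between these classes. Itga9 was the highest alpha subunit in 11 of the 22 and in 0 of the 34, which allows up to 8.82%.

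**Figure D5:**
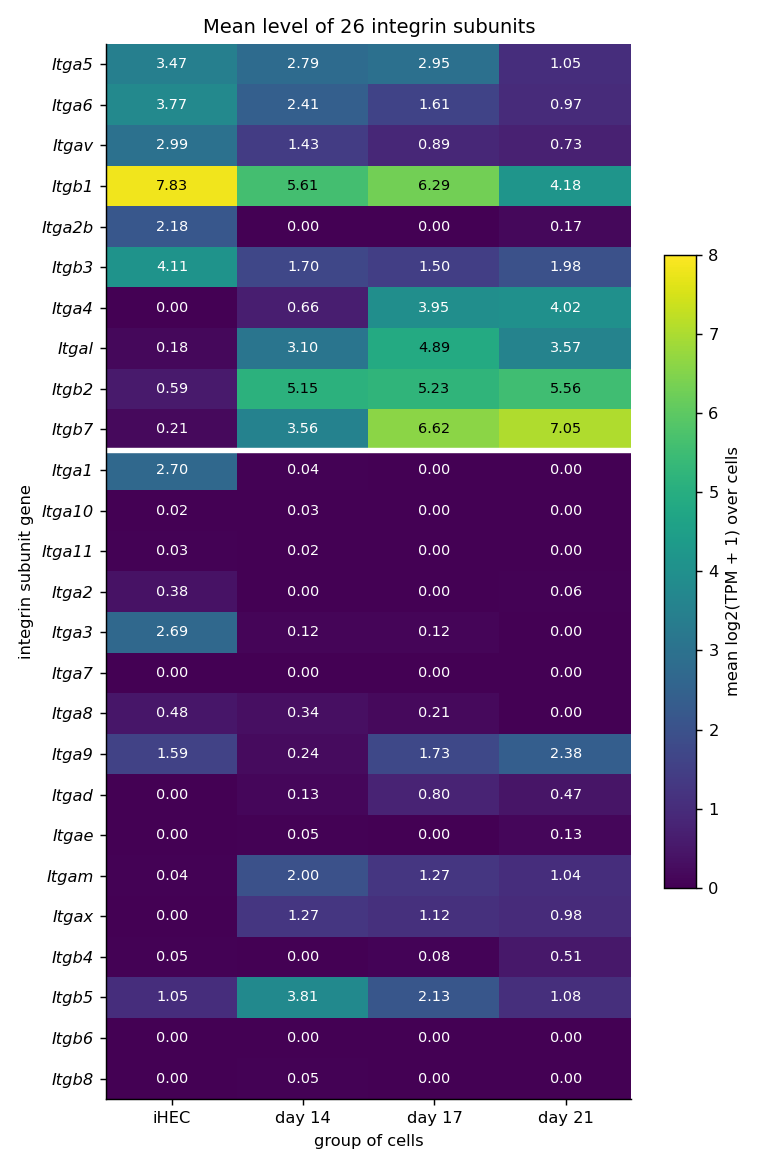
The color and the printed value are the mean log2(TPM + 1) over cells for the 10 members (above the white line) and the 16 other integrin subunits, with the 4 groups in columns. In iHECs Itgb1 has the highest mean (7.83) and Itga1 and Itga3 stand out among the others, while at day 21 Itgb7 has the highest mean (7.05).

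Of 12 genes that switch integrins to their active form, 10 passed the filter. The calls below stand beside 12.1% of all genes more than 2 higher and 10.9% more than 2 lower in the first step. In the step to day 17, 1.93% of all genes were more than 2 higher. From iHECs to day 14, Fermt3, the kindlin of blood cells, was more than 2 higher (mean 3.01 to 7.42, a step of 4.41 or 3.48 relative to the median difference), and Fermt2, the kindlin of adherent cells (5.78 to 0.94, -4.83 or -5.76), and Rap1b, a small GTPase that turns integrins on (9.64 to 8.44, -1.2 or -2.13), were more than 2 lower. Each of these steps was larger than the SD between cells. Of iHECs 36 of 65 had Fermt3 and 61 of 65 had Fermt2, against 20 of 21 and 6 of 21 cells at day 14. From day 14 to day 17 Rassf5, the effector of Rap1 that acts on LFA-1, was more than 2 higher (3.02 to 6.52, 3.50 or 3.22), with 1 of 65, 16 of 21, 17 of 18 and 49 of 56 cells above 1 TPM over the groups. From day 17 to day 21 0 of the 12 passed 2. Between the Gata2 classes Rasgrp2, which activates Rap1 in blood cells, was lower above the threshold (2.40 ± 1.92 against 5.82 ± 0.85). Of all genes 2.37% were more than 2 lower there.

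Among 12 linkers and kinases of adhesion sites, 9 of which passed the filter, Parvg, the parvin of blood cells, was listed at 0 in all 65 iHECs, which allows a share of up to 4.62%, and was present in 18 of 21, 17 of 18 and 55 of 56 iHPCs, with means of 5.28, 7.64 and 6.98 by day. It was the only gene of the list more than 2 higher from iHECs to day 14 and from day 14 to day 17. Of all genes 12.1% and 1.93% were more than 2 higher in these steps, and 10.9% were more than 2 lower in the first. Lower by more than 2 at day 14 were 5 genes, led by Vcl, which codes for vinculin (3.30 to 1.21), Parva, the widespread parvin (1.62 to 0.03), and Ptk2, which codes for focal adhesion kinase (3.94 to 2.39), although each of these 3 steps was within the SD between cells. Between the Gata2 classes Zyx (7.65 ± 1.01 against 5.43 ± 2.33) and Ptk2b (4.59 ± 1.78 against 2.54 ± 2.44) were more than 2 higher above the threshold. Of all genes 3.5% were more than 2 higher there. The differences of Zyx and Ptk2b, 2.22 and 2.05, were within the larger SD between cells.

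Of 12 integrin ligands, 5 passed the filter on low values. Over all genes 12.1% were more than 2 higher and 10.9% more than 2 lower from iHECs to day 14. In this step 0 of the 12 ligands were more than 2 higher. More than 2 lower were 5, not all of which had passed the filter. The largest were F11r, which codes for the junction protein JAM-A (8.88 to 2.59), Fn1, which codes for fibronectin (5.85 to 0.40, above 1 TPM in 62 of 65 and 3 of 21 cells), and Icam2, a ligand of LFA-1 (7.46 to 4.56). No ligand passed 2 in the later steps. For each list the median difference from iHECs to day 14 was 1.10 for the activators, -0.55 for the linkers, -0.35 for the ligands and -1.02 for the 10 members, beside 0.93 for all genes.

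The genes whose levels were most alike to each member were found by Pearson's r over the 160 cells. These r are descriptions across cells that share groups, libraries and complexity, and carry no test. Those of Itgb7 were highest, with Kcnn4 (0.90), H2-T23 (0.89) and Parvg (0.88). Itgb2 went with B4galnt1 (0.84), Myo1g and Coro2a (0.83 each), Itgal with Parvg (0.82), B4galnt1 (0.82) and Ikzf1 (0.80), and Itga4 with H2-T23 (0.81), Isg20 and Tespa1 (0.78 each). The nearest to Itgb1 were Plk2 (0.71), Ppic (0.70) and Mest (0.70). Itga6 went with Kdr (0.60), Col4a2 and Col4a1 (0.56 each), and Itgav with Col4a1 (0.57), Bsg and Rhoc (0.55 each). For Itga5 they were Afap1l1 (0.52), Ece1 and Psrc1 (0.49 each), for Itga2b Tie1 (0.50) and Slc38a4 (0.49), and for Itgb3 Lilrb4 (0.53), Klf6 (0.52) and Atf3 (0.51).

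Over the 56 day-21 cells alone the gene most alike was Tsc22d4 for Itgb7 (0.76), Myo1g for Itgb2 (0.68), Actr1b for Itgal (0.68), Eif4b for Itga4 (0.62), St6gal1 for Itgb3 (0.60), Cnot6l for Itgb1 (0.59), Fos for Itga5 (0.65), Mettl15 for Itga6 (0.58), Nrep for Itgav (0.63) and Ptrf for Itga2b (0.76), the last resting on 3 cells with the transcript. Between members in these cells r was 0.52 for Itgal with Itgb2, 0.53 for Itgb2 with Itgb7 and -0.02 for Itga4 with Itgb7. In the 65 iHECs it was 0.32 for Itga2b with Itgb3.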

How the data were processed

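Single sorted cells were sequenced as polyadenylated RNA. Per the labels and the study's methods, cDNA was amplified cell by cell and only cells with B2m and Gapdh signal in qPCR were kept. The authors aligned reads to mm10 with HISAT2 (version 2.1.0) and estimated TPM with StringTie (version 1.3.4), and the submitters' processing notes also name SAMtools (version 0.1.19) and bcl2fastq. Which sequencer was used is not settled, since the sources differ. The deposited TPM values add up to 988686 to 999108 per cell and keep no read counts, so depth is unknown and a gain of some genes lowers all others. The single table had 1 column for each of the 160 cells, and 0 columns were left unused.

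Values were taken as log2(TPM + 1), with a pseudocount of 1. Genes above 1 TPM in more than 30 cells (9674 genes) gave the median difference of each comparison. Cells are not replicates, so a difference of more than 2 relative to that median served as a fixed rule of size in place of a test, and no p-value was computed. Shares carry exact Clopper-Pearson 95% intervals, and a count of 0 a limit of 3 cells of the total. The members, the Gata2 threshold and the gene lists were chosen with earlier results of these data known. The text names all 10 members, in each list the genes past 2 in a comparison (beyond 3 in a direction, the 3 largest), and for each member the 3 genes most alike over all cells and the 1 most alike at day 21. Of the genes most alike to Itga2b, 1 is not reported here. The grouping of members by role, the counts within cells, the promoter motifs, Sfpi1, Itgam, Itgb5, Pf4 and the list genes named for the Gata2 classes were chosen after values had been seen. Protein sequences and the other promoters were not used here. Positions are from GENCODE M21 (GRCm38, the assembly that mm10 names) and promoters from RefSeq. Python 3.11.15 with pandas 2.3.3, numpy 2.4.6, scipy 1.17.1 and matplotlib 3.10.9 was used.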

Additional observations from a re-analysis of the deposited data

How the results depend on the processing

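Results were recomputed with pseudocounts of 0.1 and 10, no filter or a filter of more than 80 cells, median-of-ratios size factors, differences of medians, percentile ranks, cells with at least 5000 genes, presence above 0 or 10 TPM, and, chosen after seeing the data, near-identical profiles merged. No difference of a member turned its direction while past 2. The 2 members more than 2 higher from iHECs to day 14 became 0 with a pseudocount of 10, and the 5 lower became 3 with no filter (Itga2b, Itgb1 and Itgb3) and 1 with a pseudocount of 10 (Itgb1). From day 14 to day 17 the 2 higher became 1 (Itgb7) with a pseudocount of 10. From day 17 to day 21 the 0 lower became 1 with a pseudocount of 0.1 and with differences of medians (Itga5 in both) and 1 with no filter (Itgb1). A larger pseudocount shrinks differences of low genes by construction, and for the others the cause was not tested. Itgal joined the members more than 2 higher from iHECs to day 14 in cells with at least 5000 genes, between medians, with no filter and with a pseudocount of 0.1. The 41 other counts recomputed were within 1.5 times the reported ones. Of the 3 genes most alike over all cells, Spearman's rho gave at least 2 again for 4 of the 10 members (Itga4, Itga5, Itgb3 and Itgb7). Presence above 10 TPM moved 17 of 40 shares and 20 of 32 partner shares out of their intervals, whereas merging near-identical profiles moved none of them. No paired analysis was possible because the numbers in the labels only count cells within a group and no test between groups was run.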
